A study of Bos taurus with 16 samples.

Results

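Collagen chains that do not form the classical striated fibrils were followed in the prefrontal cortex (PFC) of 16 bulls. They are COL4A1, COL6A1, COL6A2, COL8A1, COL8A2, COL12A1, COL13A1, COL14A1, COL18A1 and COL20A1, 10 of the 27607 genes listed for each animal, and all 10 were among the 16577 genes tested. They were selected because the list of differentially expressed genes of the study, obtained from these same animals, names each of them, COL4A1 as lower and the other 9 as higher in Lidia. The members were thus chosen by their breed difference in these animals, which is given below as a description without a test. The comparison of the Lidia farms and the covariation of animals within a breed were not used by that choice.

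The aggressive cohort consisted of 8 Lidia bulls, 4 from the La Quinta farm and 4 from the Montealto farm, and the docile cohort of 8 Wagyu bulls from 1 farm. All were non-castrated males of 3 years, except the Montealto bull Agg_8174, which was 4 years old (single bulls are named as in the labels, by Agg and a number, and Wagyu bulls by their number), and the labels give no edited allele and no administered agent for any group. Lidia tissue was taken at the bullring after a fight and Wagyu tissue at a slaughterhouse, so breed, farm, rearing and the hours before death cannot be told apart, and the farms are the only division inside a breed. One RNA library of whole PFC tissue was sequenced per animal, as paired reads of 100 bases, and an animal is the replicate throughout. Values are FPKM, that is, fragments normalised to transcript length and to the mapped fragments of the animal, summed over the transcripts of a gene and divided by a median-of-ratios factor that brings the animals to one scale (scaled FPKM). FPKM is corrected for the annotated length of a transcript. Levels of different genes can thus be set side by side only as far as that annotation is right.

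Between 7.67 M and 37.0 M fragments lay behind the FPKM of an animal (M, 10 to the power 6). Wagyu 5 (7.67 M) and La Quinta Agg_8324 (13.7 M) had the fewest, and their FPKM were inflated, with factors of 2.21 and 1.78 against 0.617 to 1.13 in the other 14. Astrocyte and neuronal markers were present in every animal, among them GFAP, an astrocyte filament protein, at 91.3 to 329 and SLC17A7, the vesicular glutamate transporter of cortical neurons, at 96.7 to 181 scaled FPKM. TTR, the only 1 of 5 choroid plexus markers that could be named, was 0.154 to 9.37 in Wagyu and divided the Lidia farms without overlap, at 1.05 to 1.78 in La Quinta and 7.51 to 18.8 in Montealto.

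Collagens are trimers of wound chains, and outside the fibrils they take several forms. Type IV collagen is the sheet-like scaffold of basement membranes, and in brain it lies around vessels and beneath the pial surface. Type VI collagen assembles into beaded filaments next to basement membranes, type VIII into short-chain networks, and types XII, XIV and XX belong to the fibril-associated collagens that sit on the surface of fibrils. Type XIII is a transmembrane collagen, and type XVIII is a heparan sulfate proteoglycan of vascular basement membranes whose C-terminal fragment is endostatin. In brain tissue most such chains are made by vascular cells and by fibroblasts of the meninges and around vessels rather than by neurons. In a piece of whole tissue, fewer cells of a type and less RNA per cell cannot be told apart.

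COL4A1, the basement membrane network chain, lies at chr12:84863917-84995777 (minus strand, ARS-UCD 1.2). Its level was nearly constant in La Quinta, where the 4 bulls had 1.75, 1.75, 1.86 and 1.89 scaled FPKM. The Montealto bulls had 2.87, 1.90, 1.75 and 2.55. In Wagyu the lowest value was 2.34, the median 2.74 and the highest 3.73. Of the 8 Lidia bulls, 6 were below every Wagyu animal, and the other two, Montealto Agg_8162 and Agg_8174, were inside the Wagyu range. The mean was 2.04 ± 0.429 in Lidia and 2.88 ± 0.518 in Wagyu (SD, n = 8 each), a log2 fold change of -0.48 ± 0.12 (SE).

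COL6A1 (chr1:145668949-145687210) and COL6A2 (chr1:145807169-145837649) encode partner chains of the beaded filaments. COL6A1 was 1.25, 2.22, 4.25 and 2.96 scaled FPKM in La Quinta and 4.48, 0.867, 0.925 and 1.56 in Montealto, whereas Wagyu ran from 0.488 through a median of 0.538 to 1.25. La Quinta thus stood at or above the Wagyu maximum, while Montealto held both the highest bull, Agg_8162, and a pair inside the Wagyu range. The log2 difference between the breeds was 1.44 ± 0.33 (SE), the largest of the 10. COL6A2 followed nearly the same order of animals in Lidia, from 1.46 in Montealto Agg_8165 to 5.42 in Montealto Agg_8162 with a median of 2.92, against 0.966, 1.40 and 2.27 as the lowest, median and highest in Wagyu. Its log2 difference was 1.00 ± 0.24 (SE).

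**Figure D1:**
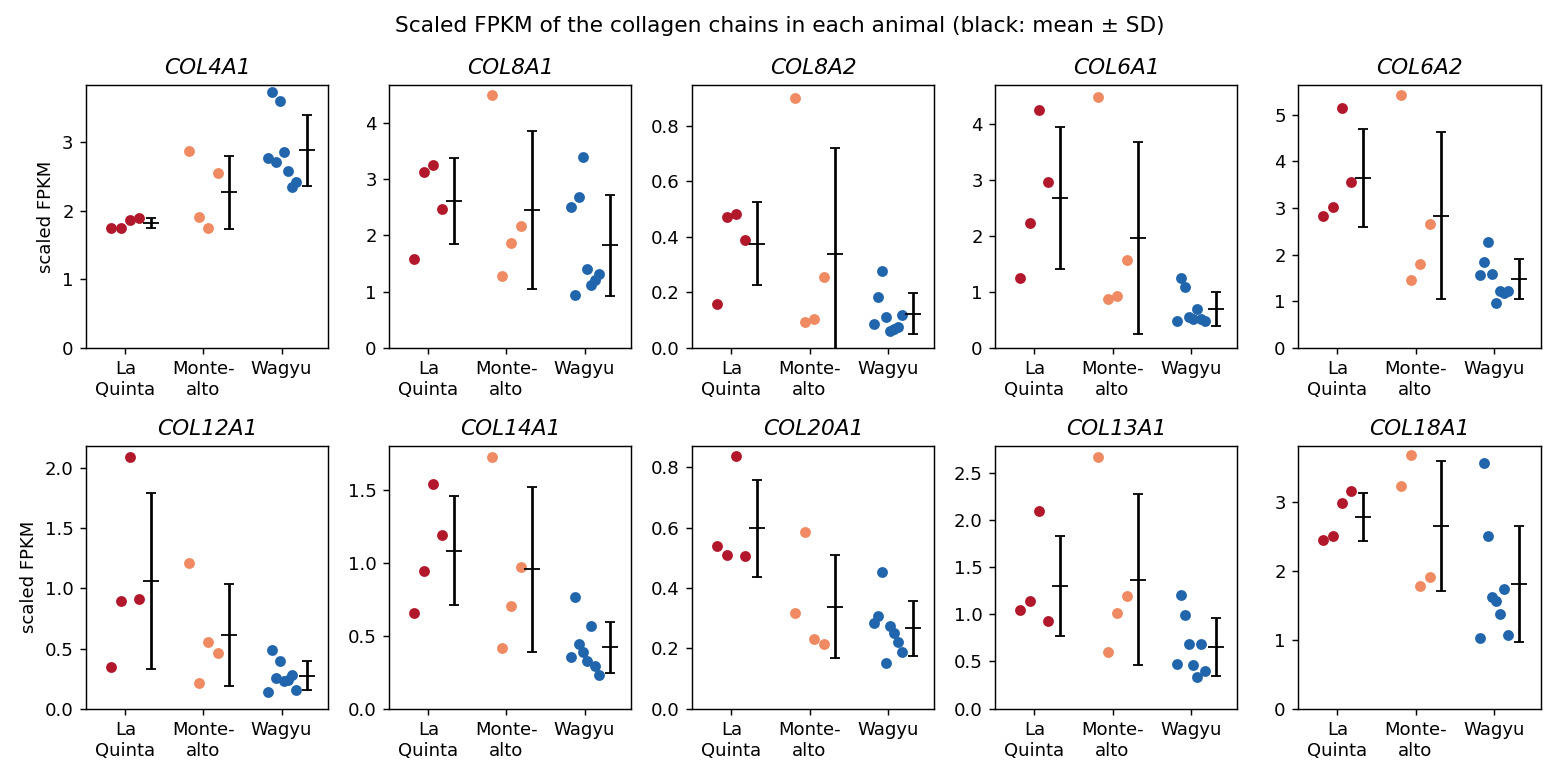
Scaled FPKM of each collagen chain (vertical axis, from 0) in the 4 La Quinta, 4 Montealto and 8 Wagyu bulls, 1 point per animal, with the mean and SD of each group in black. COL4A1 is tightly grouped in La Quinta (1.75 to 1.89) and below all 8 Wagyu animals there, and Montealto Agg_8162 is the highest Montealto point in 8 of the 10 panels.

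The network-forming short chains differed in level. COL8A1 (chr1:43902264-44073696), best known from vessel walls and the inner corneal membrane, ran from 1.28 through 2.32 to 4.50 in Lidia and from 0.943 through 1.36 to 3.39 in Wagyu (lowest, median, highest). Its groups overlapped nearly completely, with 1 Lidia bull above every Wagyu animal, and its log2 difference of 0.49 ± 0.28 (SE) was the smallest of the 9 positive ones. COL8A2 (chr3:109696709-109721078), its partner chain, was the least abundant member, at 0.0946 to 0.899 in Lidia and 0.0616 to 0.277 in Wagyu. Its log2 difference was 0.88 ± 0.32 (SE) on a scale where 0.1 had been added to each value, which shortens the differences of genes as low as this one.

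Among the fibril-associated chains, COL12A1 (chr9:14663442-14776366, minus strand) had a Lidia median of 0.724, with 0.214 as the lowest and 2.09 as the highest value. Its Wagyu median was 0.249, between 0.134 and 0.491. COL14A1 (chr14:81512830-81729606) had a Lidia median of 0.959 within 0.413 to 1.73 and a Wagyu median of 0.369 within 0.230 to 0.768. For each of these 2 genes, 5 Lidia bulls were above all Wagyu animals, and the log2 differences were 1.14 ± 0.33 and 1.06 ± 0.25 (SE). A small gene on the opposite strand, ENSBTAG00000053817, lies inside COL14A1, and although the library kit marks strand, no source used here states whether strand was used when reads were assigned, so it is uncertain how reads of the pair were divided; the values of the small gene ran the other way, with a mean of 18.1 ± 12.1 in Lidia and 28.9 ± 22.7 in Wagyu (SD, n = 8 each).

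COL20A1 (chr13:54262435-54283294, minus strand), a fibril-associated chain whose function is little studied, was the member that differed most between the farms. The La Quinta bulls had 0.538, 0.508, 0.837 and 0.505, and the Montealto bulls 0.318, 0.586, 0.232 and 0.215. Wagyu covered 0.152 to 0.453 around a median of 0.263. La Quinta was therefore wholly above Wagyu, whereas 3 of the 4 Montealto bulls were inside the Wagyu range. The log2 difference between the breeds was 0.58 ± 0.22 (SE).

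COL13A1 (chr28:26096194-26246128), the transmembrane collagen found at cell adhesion sites and at the neuromuscular junction, was 1.09 at the median in Lidia and 0.579 in Wagyu, a log2 difference of 0.90 ± 0.28 (SE). Montealto Agg_8162 (2.67) and La Quinta Agg_8320 (2.09) exceeded every Wagyu animal, and the other 6 Lidia bulls lay among them. COL18A1 (chr1:145202138-145296595), the proteoglycan that yields endostatin, was 2.45, 2.51, 2.98 and 3.16 in La Quinta and 3.23, 3.68, 1.78 and 1.91 in Montealto. Its Wagyu values ran from 1.03 through 1.59 to 3.56. Only Montealto Agg_8165 was above the highest Wagyu animal, and the log2 difference was 0.63 ± 0.22 (SE).

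The order of the levels differed between the breeds. This is a description only, since COL4A1 was chosen as lower and the other chains as higher in Lidia. In Wagyu, COL4A1 was the most abundant chain (mean 2.88) and was above the next, COL8A1 (1.82), in 8 of 8 animals. In Lidia, COL6A2 (3.24), COL18A1 (2.71), COL8A1 (2.53), COL6A1 (2.31) and COL4A1 (2.04) came first. Of neighbours in this order, COL6A2 was above COL18A1 in 7 of 8 bulls and COL8A1 above COL6A1 in 6 of 8, whereas COL18A1 was above COL8A1 in 3 of 8 and COL6A1 above COL4A1 in 4 of 8, so that these last pairs were not separated. COL8A1 and COL18A1 in Wagyu (1.82 and 1.81, the first above the second in 4 of 8) and COL12A1 and COL20A1 in Wagyu (0.274 and 0.267, 3 of 8) were likewise not separated. All 10 chains were modest in abundance, since the most abundant had a higher mean than 47.3% and the least abundant than 8.16% of the tested genes.

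In the linear model of all 16577 genes (limma, with a call where the Benjamini-Hochberg adjusted p was 0.05 or less and the log2 difference 0.1 or more in size), 827 genes, 4.99%, were called between the breeds, 552 of them higher in Lidia. The members called were COL4A1, COL6A1, COL6A2 and COL14A1, 4 of 10, and nothing is read from this count because the same contrast chose the genes. For none of the 10 did all Lidia values lie on one side of all Wagyu values, which was the case for 0.706% of the genes tested. The median log2 difference was 0.89 over the members and -0.01 over all genes. The count of 4 was unstable. With the FPKM as deposited it was 0, as it was without Wagyu 5 and La Quinta Agg_8324 together or without Wagyu 12 alone. It was 1 without Wagyu 6, La Quinta Agg_8314, La Quinta Agg_8320 or La Quinta Agg_8324, 2 without Wagyu 7, Wagyu 9 or Montealto Agg_8162, and 7 without Wagyu 3.

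Both farms were compared with the same Wagyu animals, so the following values share their controls. COL6A1 differed from Wagyu by 1.75 ± 0.40 in La Quinta and by 1.13 ± 0.40 in Montealto, COL12A1 by 1.48 ± 0.39 and 0.80 ± 0.39, and COL4A1 by -0.62 ± 0.14 and -0.34 ± 0.14 (log2, SE). COL20A1 differed by 0.94 ± 0.23 in La Quinta and by 0.22 ± 0.23 in Montealto. COL13A1 was much the same in both, at 0.92 ± 0.35 and 0.87 ± 0.35. Of all genes, 1.13% were called in La Quinta and 1.77% in Montealto against Wagyu, and of the members COL6A1 and COL6A2 in La Quinta and none in Montealto, where 294 genes were called. An unadjusted limma p under 0.05 was found in Montealto for 5 members and for 21.0% of all genes, and nothing is read from the 5 because the Wagyu contrast chose the members. The count of 2 in La Quinta was 0 with the FPKM as deposited and without Wagyu 1, 5, 6, 7, 9 or 12, La Quinta Agg_8314, Agg_8320 or Agg_8324, or Montealto Agg_8174. It was 1 without Montealto Agg_8171, 4 without Wagyu 3 or Montealto Agg_8162, and 5 without Montealto Agg_8165.

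**Figure D2:**
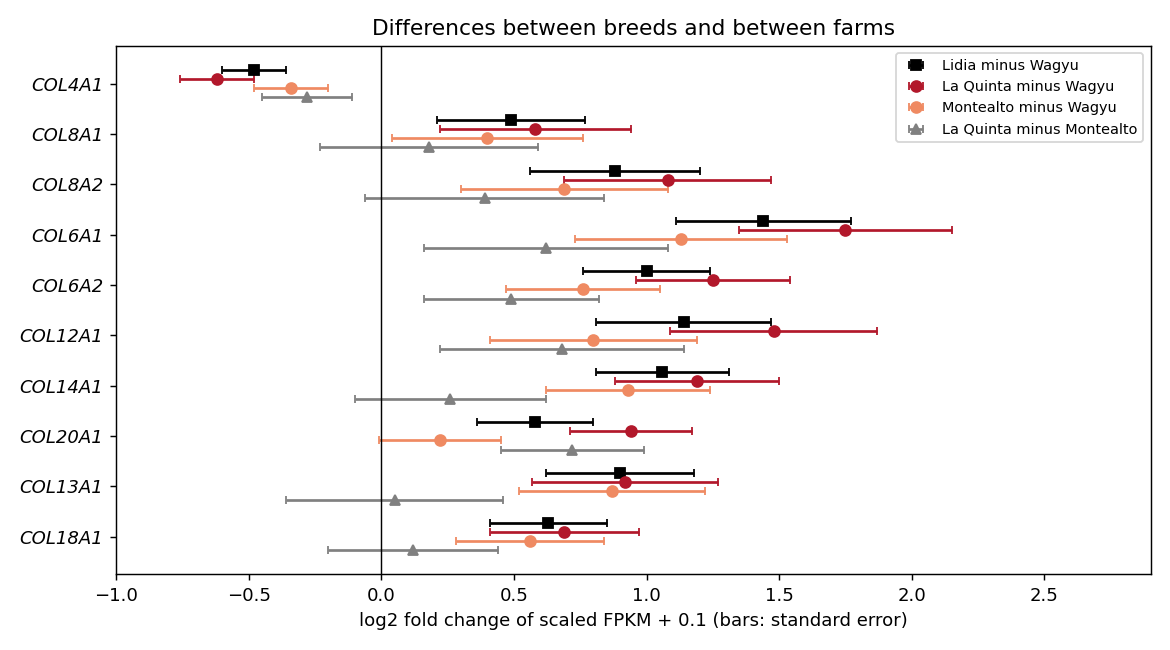
Log2 fold change of each collagen chain, with its standard error as a bar, for Lidia against Wagyu, for each Lidia farm against Wagyu and for La Quinta against Montealto. COL4A1 is the only chain left of 0 in the breed comparison (-0.48), and COL20A1 has the largest difference between the farms (0.72).

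The farms offered a comparison that the choice of members had not used. The choroid plexus marker TTR was higher in every Montealto bull than in any from La Quinta, and its part in the farm differences was not tested. None of the 10 chains was called between La Quinta and Montealto, where 15 of all genes (0.0905%) were called and 977 had an unadjusted limma p under 0.05. The largest difference was that of COL20A1, 0.72 ± 0.27 higher in La Quinta (log2, SE). It did not pass the adjustment over all genes (limma, adjusted p = 0.757, unadjusted p = 0.0177), and 1 La Quinta bull exceeded all 4 from Montealto (exact two-sided permutation test of 4 against 4, p = 0.114, the smallest possible being 0.0286). COL4A1 was the one chain with a negative log2 difference, its means being 1.81 ± 0.0723 against 2.27 ± 0.533 (SD, n = 4 each), and this difference of -0.28 ± 0.17 (SE) did not pass either (limma, adjusted p = 0.828). With the FPKM as deposited that difference was 0.06. For no member were the farms free of overlap, against 3.60% of all genes. The coefficient of variation inside Montealto ran from 23.5% for COL4A1 to 113% for COL8A2, with 87.3% for COL6A1. Simulated farm differences of fixed size were run through the model, and their recovery is not reported here. Whether the members' own breed differences could have been detected between farms was not calculated.

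COL4A1 was then set against the other 9 chains inside each animal, as its log2 value minus the mean log2 value of the others. In Wagyu this difference ran from 1.50 to 2.34 with a median of 2.19. The La Quinta bulls had 0.87, 0.35, -0.14 and 0.41, and the Montealto bulls 0.45, 1.34, 1.09 and 1.31. All Lidia values were below all Wagyu values, a separation that follows from the choice of members. Between the farms, La Quinta was lower by 0.67 on the log2 scale (exact two-sided permutation test, p = 0.0571), which did not reach 0.05.

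Within Lidia, 7 chains moved together from animal to animal. Over the 8 bulls the 21 pairs among COL6A1, COL6A2, COL8A1, COL8A2, COL12A1, COL13A1 and COL14A1 had Pearson's r between 0.80 and 0.96, with a median of 0.90. The group thus holds beaded-filament, short-chain network, fibril-associated and transmembrane collagens alike. COL18A1 and COL20A1 stood outside it, with r of 0.05 to 0.40 and of -0.03 to 0.29 with those 7, and r of 0.67 with each other. COL4A1 had r of 0.15 to 0.56 with the 7. These 7 were grouped after the values had been seen, so their coefficients are a description. In Wagyu the pattern differed: COL8A1 had r of -0.23 to 0.46 with the other 6, whereas COL18A1 reached 0.88 with COL6A1 and 0.89 with COL13A1. The difference between the breeds in these coefficients was not tested.

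**Figure D3:**
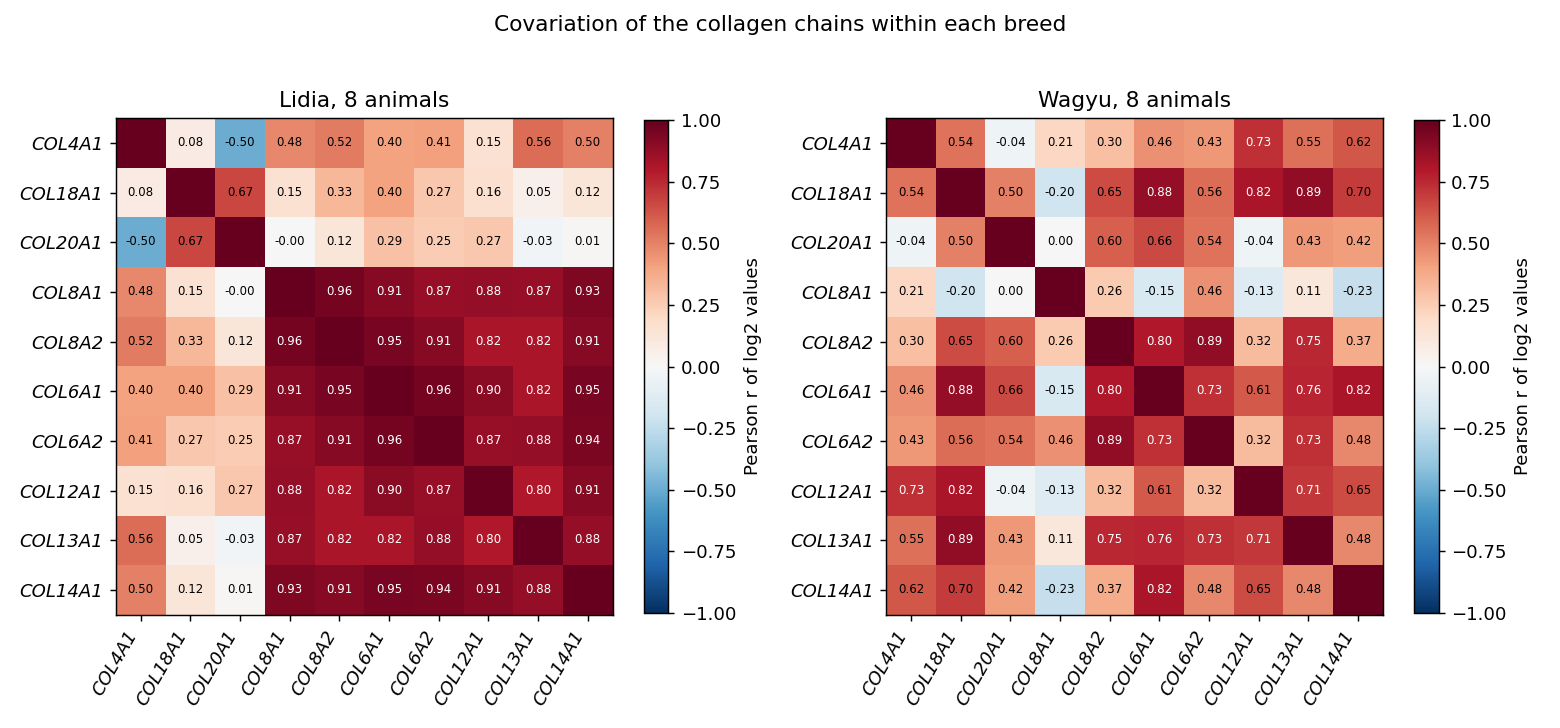
Pearson's r between the log2 values of each pair of chains over the 8 Lidia bulls (left) and the 8 Wagyu bulls (right), from -1 (blue) to 1 (red). The 7 chains at the lower right form a block of 0.80 to 0.96 in Lidia, while COL8A1 falls out of that block in Wagyu.

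COL4A1 was tested against each of the other 9 chains in both breeds, 18 relations in all, and 0 passed the adjustment over them. The strongest was with COL12A1 in Wagyu (r = 0.73, exact permutation p = 0.0411, adjusted p = 0.418, Spearman's rho = 0.38, exact permutation p = 0.360, adjusted p = 0.745), and it rested on the 2 animals farthest from the median of COL4A1, since r without them was -0.20. In Lidia the coefficients went from -0.50 (COL20A1) to 0.56 (COL13A1). Over all genes the median r with COL4A1 was 0.04 in Lidia and 0.02 in Wagyu. Since the farm difference of COL4A1 had the opposite sign to those of the other chains, the farm means were also subtracted, a calculation added after the values had been seen. The coefficients with the 7 chains then rose to between 0.51 (COL12A1) and 0.86 (COL6A2), that with COL6A1 being 0.81 (exact permutation within farms, p = 0.0139, adjusted over 9 relations 0.125). Montealto Agg_8162 carried much of this, as r with COL6A1 was 0.57 without it.

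Markers of other cell types were read in the same libraries. The 10 chosen genes of leptomeningeal fibroblasts (DCN, LUM, ISLR, SLC6A13, SLC22A6, SLC22A8, FOXC2, TWIST1, PCOLCE and FBLN1), the collagen-making cells of the brain's coverings, could all be named. Their summed level was 18.4 to 102 scaled FPKM in Lidia, with a median of 44.5, and 7.92 to 30.2 in Wagyu, with a median of 9.43. No marker of this list was at 0 in any animal, and the lowest was FOXC2, a transcription factor, with 0.0107. All 10 are on the study's own list of genes higher in Lidia, from which every gene name here comes, so their direction between breeds is not independent evidence. Montealto Agg_8162 had the highest sum (102), followed by La Quinta Agg_8320 (83.1), La Quinta Agg_8324 (77.6) and La Quinta Agg_8314 (61.1), and the other 4 Lidia bulls had 18.4 to 27.9. The same 4 bulls, in the same order, had the highest COL6A1 and COL6A2, although for COL6A2 the last of them (3.02) was close to La Quinta Agg_8312 (2.82).

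The mean log2 value of these markers followed the block of 7 chains in Lidia. The coefficients were 0.96 for COL6A1 (exact permutation p = 6.9e-04, rho = 0.98), 0.94 for COL8A1 and COL8A2, 0.93 for COL14A1, 0.92 for COL12A1, 0.88 for COL6A2 and 0.75 for COL13A1. All 7 passed the adjustment over the 20 relations of this family (adjusted p from 0.00347 to 0.0351), whereas by Spearman's rho COL13A1 did not (0.71, exact permutation p = 0.0576, adjusted p = 0.115). An r of at least 0.7 was reached by 7.22% of all genes. This background was not matched, since the markers and the 7 chains are all on the study's list of genes higher in Lidia. How far that shared listing raised the coefficients was not tested. The 3 remaining chains had r of 0.34 (COL4A1), 0.33 (COL18A1) and 0.20 (COL20A1). Leaving out the 2 bulls farthest from the median kept r at 0.78 or more for 6 of the 7 and lowered that of COL13A1 to 0.47. With the farm means subtracted the 7 coefficients were 0.78 to 0.96, and 6 of the 7 passed the adjustment over 10 relations, while COL13A1 did not (r = 0.78, exact permutation within farms, p = 0.0399, adjusted p = 0.0521). COL4A1 then had r = 0.68 in place of 0.34, with an exact permutation p of 0.0417 (adjusted p = 0.0521), and r = 0.35 without Montealto Agg_8162. The marker values of the 8 bulls left a gap between 1.02 and 1.98, and the bulls were divided there after the values had been seen. On either side r was positive for each of the 7 chains, from 0.49 to 0.99 below the gap and from 0.50 to 0.98 above it. It was likewise positive for COL4A1 (0.67 and 0.86). Each of these coefficients is over 4 animals and without a test, and is a description. COL18A1 changed sign across the gap (-0.88 and 0.82), and COL20A1 was negative on either side (-0.95 and -0.32).

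In Wagyu the fibroblast markers separated animals 3 and 4, with mean log2 values of 0.89 and 1.01, from the other 6, which had -0.63 to -0.24. Over all 8, COL6A1 (0.92), COL13A1 (0.92), COL8A2 (0.90), COL18A1 (0.90) and COL6A2 (0.82) passed the adjustment over the 20 relations by Pearson's r, and COL13A1 and COL18A1 by Spearman's rho (0.90 and 0.88, exact permutation, adjusted p = 0.0130 and 0.0181). An r of at least 0.7 was reached by 5.09% of all genes in Wagyu, a background that was likewise not matched. Without animals 3 and 4 the coefficient of COL6A1 was -0.13, that of COL8A2 0.11 and that of COL6A2 0.30, so these 3 relations rested on that pair. COL13A1 (0.97) and COL18A1 (0.71) kept high coefficients over the other 6. COL12A1 had 0.77 there but had not passed over all 8 (r = 0.59, exact permutation, adjusted p = 0.134). COL8A1 had r = 0.07 with these markers, and its 3 highest Wagyu values were in animals 5, 4 and 1 (3.39, 2.69 and 2.50), of which only animal 4 was high in the markers. Whether fibroblast content has a part in the breed differences of the chains was not tested.

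COL18A1 varied with endothelial markers in both breeds, and in Wagyu with the fibroblast markers as well. Relations of the chains with the markers of further cell types were not calculated. The relation was therefore not shown to be particular to endothelial cells. Of 10 markers of brain endothelial cells 6 could be named (CLDN5, CDH5, KDR, FLT1, VWF and ESAM). Their sum was 32.3 to 115 in Lidia and 16.7 to 38.3 in Wagyu, none was at 0 in any animal, and all 6 are on the study's list of genes higher in Lidia. The coefficient of COL18A1 with their mean log2 value was 0.86 in Lidia (exact permutation p = 0.00528, adjusted over 20 relations 0.0342, rho = 0.88) and 0.98 in Wagyu (exact permutation p = 3.2e-04, adjusted 0.00645, rho = 0.90). By rho, with an adjusted p of 0.0724 in each breed (exact permutation), neither passed. Without the 2 animals farthest from the median the coefficients were 0.69 and 0.94, and leaving out any 1 animal kept them at 0.78 to 0.92 in Lidia and 0.97 to 0.99 in Wagyu. In Lidia this coefficient was above that of 98.3% of all genes, again without matching to genes listed as higher in Lidia. With the farm means subtracted r in Lidia was 0.95, but this did not pass the adjustment over 10 relations (exact permutation within farms, p = 0.0122, adjusted p = 0.122).

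None of the other chains passed in Lidia, with r of -0.13 (COL12A1) to 0.40 (COL20A1) and 0.33 for COL4A1. With the farm means subtracted COL20A1 had r = 0.84 (exact permutation within farms, p = 0.0417, adjusted p = 0.209). The values of the other chains depended on 1 bull. Montealto Agg_8165 had 97.5 scaled FPKM of CLDN5, the tight junction protein of brain vessels, against at most 31.2 in the other 7 Lidia bulls, and it had the highest COL18A1 (3.68) and VWF (2.89) together with the lowest COL6A1 (0.867) of the Lidia animals. Without it 6 chains in place of 1 had an exact permutation p of at most 0.05 with the endothelial markers. In Wagyu, where animal 3 was highest in all 6 markers, COL6A1 (0.87) and COL13A1 (0.84) passed the adjustment beside COL18A1, and without animal 3 only 1 chain of 10 had an exact permutation p of at most 0.05 in place of 5. The part of vessel content in the breed difference of COL18A1 was not tested.

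**Figure D4:**
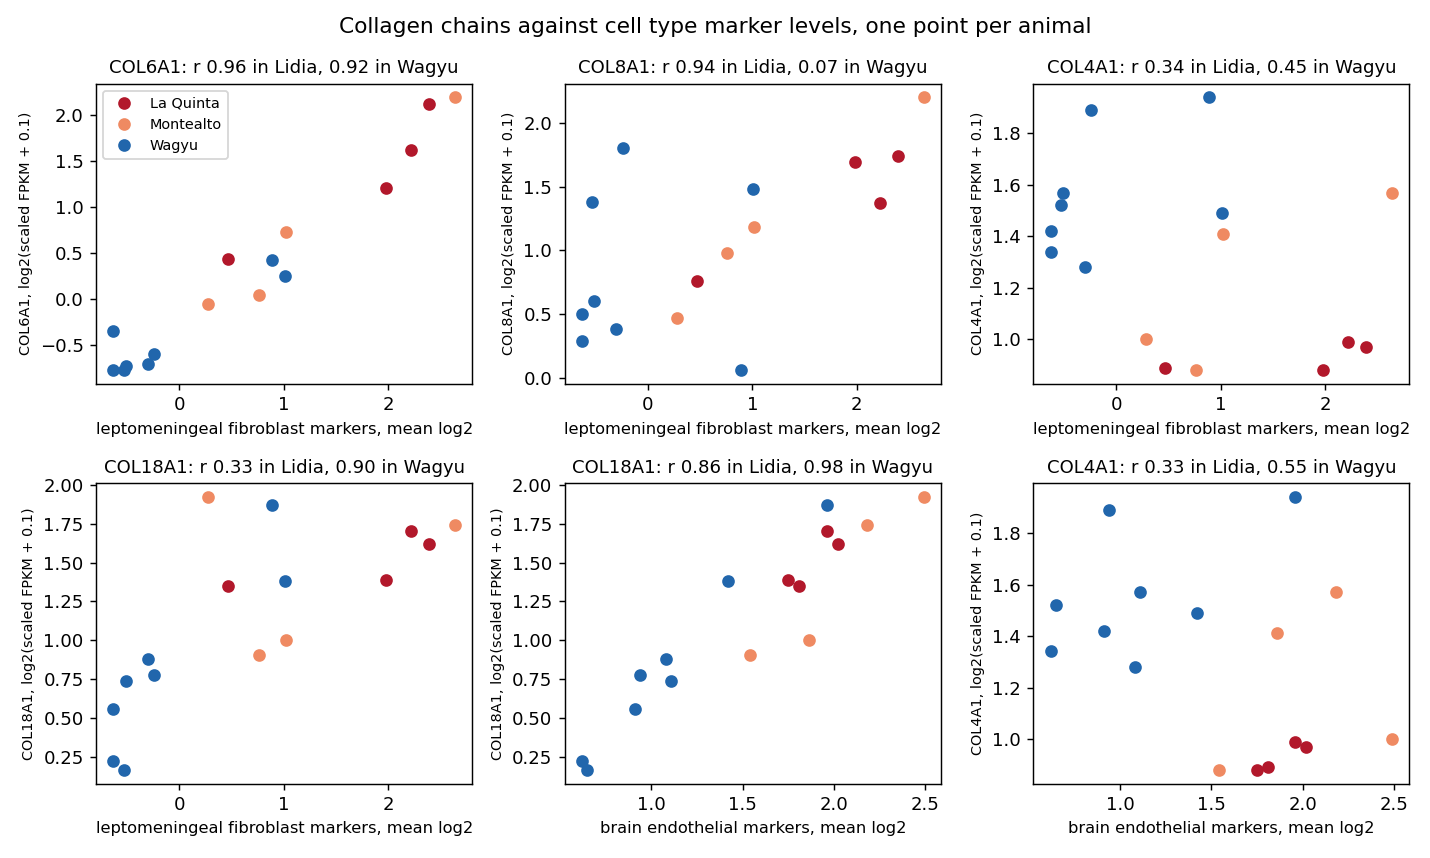
Log2 values of COL6A1, COL8A1, COL4A1 and COL18A1 (vertical axes) against the mean log2 value of the leptomeningeal fibroblast or brain endothelial markers (horizontal axes), 1 point per animal, coloured by farm or breed. COL6A1 rises with the fibroblast markers (r = 0.96 in Lidia) and COL18A1 rises with the endothelial markers in both breeds (0.86 and 0.98). The marker ranges of the breeds overlap in part. They are 0.28 to 2.64 in Lidia and -0.63 to 1.01 in Wagyu for fibroblasts, and 1.54 to 2.49 and 0.62 to 1.96 for endothelial cells.

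Of the other cell types, mural cells, the contractile cells of vessel walls, had 3 of 8 markers named (PDGFRB, CSPG4 and NOTCH3), summing to 4.52 to 6.39 in Lidia and 2.39 to 5.90 in Wagyu. Astrocytes had 3 of 5 (272 to 404 and 150 to 429), neurons 2 of 6 (98.4 to 149 and 119 to 184) and microglia 2 of 4 (13.1 to 25.6 and 6.28 to 14.4). HBB, the red cell globin, was 0.333 to 4.93 in Lidia and 0 to 1.84 in Wagyu. None of the 4 oligodendrocyte markers could be named. Wagyu 3 had the highest sum of its breed in the fibroblast, endothelial, mural, astrocyte, microglia and TTR readings, and it was also the highest Wagyu animal for COL4A1, COL6A1, COL12A1, COL13A1, COL14A1 and COL18A1.

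Part of the members lie on one stretch of chromosome 1. COL18A1, COL6A1 and COL6A2 are on the plus strand within 636 kb, with 372 kb between COL18A1 and COL6A1 and 120 kb between the type VI genes. Between COL18A1 and COL6A1, 3 genes passed the filter on low values (a mean of at least 0.1), and none was called higher in Lidia. Unlike the collagen genes beside them, they were not chosen by their breed difference. ENSBTAG00000024162 had a breed difference of -0.09 ± 0.16 and ENSBTAG00000030775 one of 0.01 ± 0.11 (log2, SE; limma, adjusted p = 0.790 and 0.980). ENSBTAG00000051007 was lower in Lidia, by a log2 fold change of -0.80 ± 0.22 (limma, adjusted p = 0.0467). Within Lidia their r with COL6A1 was -0.39, -0.77 and -0.38, while COL6A2 had 0.96 and COL18A1, at the far end, 0.40. The other 2 genes in the interval, ENSBTAG00000030764 and ENSBTAG00000048318, were at or near 0.

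The gene next to COL4A1 was not called between the breeds, its log2 difference being close in size to its standard error. COL4A1 was chosen for its breed difference and this neighbour was not, and their differences were not compared by a test. ENSBTAG00000025210 (chr12:85040120-85153241, plus strand) starts 44343 bases beyond the 5′ end of COL4A1 and is transcribed away from it. Its mean was 6.36 ± 1.02 in Lidia and 7.06 ± 1.12 in Wagyu (SD, n = 8 each), a log2 difference of -0.15 ± 0.13 (SE; limma, adjusted p = 0.541), and its r with COL4A1 was 0.12 in Lidia and 0.58 in Wagyu. RefSeq places COL4A2, the partner chain of COL4A1 in the type IV trimer, beside COL4A1 on a later assembly (ARS-UCD2.0), but the files give this gene no symbol. The other 3 genes within 200 kb were at or near 0.

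The genes whose pattern over the 16 animals was most like that of COL6A1, after the breed means were removed, were PROS1, the anticoagulant protein S (r = 0.97), ENSBTAG00000017165 and ENSBTAG00000003019 (0.95 each), BMP4, a secreted growth factor (0.94), and SCARA5, a ferritin receptor (0.94). The 5 most like COL4A1 had r of 0.78 to 0.86 and no symbol, the first being ENSBTAG00000030424 (0.86), with a mean of 0.185 scaled FPKM. The highest coefficients were thus larger for COL6A1 than for COL4A1, a difference that was not tested. COL6A1 also varied more from animal to animal, with an SD of log2 values in Lidia of 0.89 against 0.26.

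The wider collagen and basement membrane pathway could be seen only through the genes that the study's list names. Of 34 other collagen chains 7 had a symbol, all higher in Lidia by that choice, and 2 were called, COL1A1 (2.07 ± 1.19 against 0.506 ± 0.431) and COL1A2 (5.03 ± 3.31 against 1.18 ± 1.00, SD, n = 8 each), the chains of fibrillar type I collagen. Their r with COL6A1 in Lidia was 0.93 and 0.94, that of COL3A1 0.97, of COL5A2 0.76 and of COL2A1 0.71, and lower for COL11A1 (0.56) and COL11A2 (0.26). With COL4A1 these 7 fibrillar chains had r of 0.01 (COL2A1) to 0.57 (COL11A1) in Lidia and of 0.30 (COL11A1) to 0.79 (COL1A1) in Wagyu. COL1A1 thus had 0.16 in Lidia and 0.79 in Wagyu, a difference that was not tested. Of 12 laminins, the cross-shaped glycoproteins of basement membranes, 4 had a symbol and LAMB1 (0.89 ± 0.24) and LAMB2 (0.79 ± 0.20) were called, while LAMA1 (0.42 ± 0.17) and LAMA2 (0.63 ± 0.23) were not (log2, SE). NID1 (0.80 ± 0.18) and NID2 (0.84 ± 0.21) were called among the nidogens, which bridge laminin and type IV collagen. Every pathway gene with a symbol owes it to the study's list of this same breed contrast. Nothing is therefore read from their directions or calls, beside 4.99% called among all tested genes.

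TINAGL1, a matricellular protein of basement membranes singled out after its value was seen, was the only pathway gene with a symbol that shared the direction of COL4A1, at 2.05 ± 0.723 in Lidia and 3.31 ± 0.871 in Wagyu (SD, n = 8 each). Its r with COL4A1 was 0.79 in Wagyu and -0.17 in Lidia. Genes higher in Lidia had similar coefficients with COL4A1 in Wagyu, such as COL1A1 (0.79), LAMB1 (0.78) and NID1 (0.77). Of 27 genes for folding, processing and crosslinking of collagen 6 had a symbol and 3 were called, all higher in Lidia by the choice of names. These were PCOLCE, an enhancer of procollagen cleavage (log2 difference 1.19 ± 0.20, SE), and the matrix metalloproteinases MMP2 (3.19 ± 0.996 scaled FPKM in Lidia against 1.36 ± 0.588 in Wagyu, SD, n = 8 each) and MMP14 (log2 difference 1.52 ± 0.36, SE). Of 9 collagen receptors only MRC2, which takes collagen into the cell, had a symbol, and it was called (1.11 ± 0.24). These 4 genes are named after their values were seen. Between the farms 0 of these 21 pathway genes were called, and their log2 differences lay between -0.19 (COL11A1) and 0.66 (COL1A1).

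Transcripts were read where a gene had more than 1. COL4A1 came almost wholly from ENSBTAT00000035335 (52 exons), with at least 97.3% of the gene's FPKM in each animal, and COL18A1 from ENSBTAT00000083892 (42 exons), with at least 93.2%. COL6A2 was split, its longer form ENSBTAT00000043412 holding a mean of 54.2% in La Quinta, 52.5% in Montealto and 60.6% in Wagyu. The main form of COL14A1 held 76.3%, 78.4% and 65.8%. In COL20A1 the division was erratic, as ENSBTAT00000063888 held from 0.0161% (Montealto Agg_8165) to 66.7% in Montealto and from 26.5% to 99.5% in La Quinta (exact two-sided permutation test, p = 0.229), so it was read only as a sum. The confidence bounds that Cufflinks gives around the main transcript had a median half-width of 8.90% of the value for COL4A1, 8.91% for COL8A1, 10.7% for COL18A1, 15.0% for COL6A1, 35.8% for COL8A2 and 41.7% for COL20A1. The widest reached 120% for COL8A2 (Wagyu 7). For COL20A1 the widest was 11349%, in Montealto Agg_8165, where that transcript held only 0.0161% of the gene. These bounds cover the error of counting and assigning fragments within 1 library, not the spread between animals.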

How the data were processed

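Tissue of the PFC from 8 Lidia and 8 Wagyu bulls was sequenced once per animal. Per the labels and methods, the authors used PRINSEQ for trimming, STAR 2.7.3a for alignment to ARS-UCD 1.2 (Ensembl annotation) and Cufflinks 2.2.1 for transcript abundance. The deposited FPKM of 43984 transcripts are scaled to the mapped fragments of each animal, with no scaling between animals, and precede the merging and Cuffdiff steps. Reads could not be counted from these files, so the spread between animals gives the precision. Depth was taken as coverage over FPKM with 200 bases per fragment. Breeds come from the labels and farms from the study's sample table.

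FPKM were summed per gene and divided by median-of-ratios factors. Genes with a mean of at least 0.1 were tested on log2(scaled FPKM + 0.1) with limma 3.58.1 in R 4.3.3 (variance trend, two-sided, Benjamini-Hochberg adjustment), with breed as the only term for the breeds and 3 groups (La Quinta, Montealto, Wagyu) for the farms. Python 3.11.15 with numpy 2.4.6 and pandas 2.3.3 gave the exact two-sided permutation tests (70 splits of 4 against 4, 40320 pairings of 8 animals). The model was also run on simulated data with known differences between breeds and between farms, and the recovery is not reported here.

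Symbols were paired by identical start and end with the study's gene list (1163 of 1197 entries). The members, the marker and pathway lists and the tests were chosen with earlier results of these data known. The genes named are the members, pathway genes in list order, the 5 genes most like COL4A1 and COL6A1, and neighbours within 200 kb of COL4A1 or between COL18A1 and COL6A2. Alternatives were the FPKM as deposited, upper-quartile scaling, pseudocounts of 1 and 0.01, a mean of at least 1, no filter, no variance trend, array weights, an adjusted p of at most 0.01, and leaving out each animal or the 2 of highest FPKM sum.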

Additional observations from a re-analysis of the deposited data

Results flagged for a closer look

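La Quinta Agg_8320 stood apart from the other 3 bulls of its farm in COL20A1, with 0.837 scaled FPKM against 0.538 for the next, a gap of 0.90 of the farm's range, which is above Dixon's 95% critical value for 4 animals. It was the only one of 40 gene and group combinations in which a single animal stood apart in this way, and chance alone gives about 1 in 20.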

How the results depend on the processing

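On the FPKM as deposited, without scaling between animals, 0 genes and 0 members were called between the breeds (limma, 1022 genes at an unadjusted p under 0.05), 6 genes between the farms, 22 genes and 0 members for La Quinta against Wagyu, and 0 genes for Montealto against Wagyu (786 genes at an unadjusted p under 0.05). The farm difference of COL4A1 was then 0.06. Members covarying at an exact permutation p of at most 0.05 numbered 6 (Lidia) and 7 (Wagyu) with COL4A1, 8 with the fibroblast markers in Wagyu, and 3 (Lidia) and 9 (Wagyu) with the endothelial markers, and COL20A1 had r of 0.17 (Lidia) and 0.60 (Wagyu) with COL4A1. Whether the animals with inflated FPKM caused these changes was not tested.

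With array weights, limma called 3088 genes and 9 members between the breeds, 54 genes between the farms, 2425 genes and 10 members for La Quinta, and 1582 genes and 4 members for Montealto, where COL20A1 had a log2 difference of -0.04. Without the 2 animals of highest FPKM sum the counts were 246 genes and 0 members (breeds), 9 genes (farms), 28 genes and 0 members (La Quinta) and 61 genes (Montealto), and r with COL4A1 in Wagyu was -0.21 for COL8A1 and 0.43 for COL20A1. At an adjusted p of at most 0.01, 105 genes and 0 members were called between the breeds. A mean of at least 1 left 8 genes called between the farms, and no filter left 160 for Montealto. The members called for La Quinta were 0 under upper-quartile scaling, a pseudocount of 1 or no filter, and 1 without the variance trend.

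Without the 2 animals farthest from the median, 1 (Lidia) and 0 (Wagyu) members covaried with COL4A1, 1 with the fibroblast markers in Wagyu, and 3 (Lidia) and 1 (Wagyu) with the endothelial markers. Coefficients with COL4A1 were then -0.08 (COL8A1), -0.17 (COL13A1) and 0.54 (COL20A1) in Lidia and -0.20 (COL12A1) and 0.60 (COL20A1) in Wagyu. Those with the fibroblast markers were -0.10 for COL4A1 in Lidia and -0.13, -0.09 and -0.52 for COL6A1, COL14A1 and COL20A1 in Wagyu. With farm means subtracted, an alternative chosen after seeing the data, 3 members covaried with COL4A1 and 2 with the endothelial markers, and COL20A1 had r of -0.06 with the fibroblast markers. The cause of these changes was not tested.

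Leaving out 1 animal at a time gave 362 to 1454 genes and 0 to 7 members called between the breeds, 7 to 17 genes between the farms, 38 to 427 genes and 0 to 5 members for La Quinta, and 41 to 1008 genes for Montealto. Covarying members numbered 0 to 1 with COL4A1 in either breed, 6 to 7 (Lidia) and 3 to 6 (Wagyu) with the fibroblast markers, and 1 to 6 (Lidia) and 1 to 5 (Wagyu) with the endothelial markers. The farm difference of COL4A1 relative to the others stayed between -0.87 and -0.50. The range took in both signs for the farm differences of COL8A1 (-0.06 to 0.51), COL13A1 (-0.25 to 0.42), COL14A1 (-0.04 to 0.58) and COL18A1 (-0.04 to 0.30), for COL20A1 in Montealto against Wagyu (-0.02 to 0.35), for r with COL4A1 of COL8A1 (-0.01 to 0.61), COL12A1 (-0.15 to 0.35) and COL18A1 (-0.27 to 0.45) in Lidia and of COL8A1 (-0.21 to 0.76) and COL20A1 (-0.25 to 0.43) in Wagyu, for r with the fibroblast markers of COL4A1 (-0.08 to 0.52) and COL20A1 (-0.06 to 0.40) in Lidia and COL8A1 (-0.31 to 0.51) in Wagyu, and for r of COL6A1 with the endothelial markers in Lidia (-0.17 to 0.89). No paired analysis was possible because the breeds and farms share no replicate numbers.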
